A study of Mus musculus with 26 samples.

Results

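The left ventricle expression of 9 genes of vascular smooth muscle cells and pericytes was followed: Acta2, Tagln, Myh11, Cnn1, Smtn, Rgs5, Pdgfrb, Notch3 and Cspg4. They were taken by name from a matrix of counts for 56941 genes, and all 9 members passed the filter on low counts, among 15357 genes tested. The study asked how loss of Ppp2r2a, which encodes the B55α regulatory subunit of protein phosphatase 2A, in cardiomyocytes changes the ventricular transcriptome of each sex. Bulk RNA of 26 mice was sequenced: 6 male and 6 female floxed controls (Ctrl, aMHC-Cre0/0-Ppp2r2aL/L), and 7 male and 7 female knockouts (cKO, aMHC-CreTg/0-Ppp2r2aL/L). All mice were 12 to 16 weeks old and had received saline from an implanted minipump for 2 weeks, and all carried floxed Ppp2r2a alleles. Cre was driven by the aMHC promoter, which is active in cardiomyocytes, on a mixed background of C57BL6/N (floxed line) and FVB (Cre line), and mice with Cre but no floxed alleles were not analysed here.

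Smooth muscle cells form the contractile wall of coronary arteries and arterioles, and pericytes lie along capillaries. Smooth muscle cells contract through an actin and myosin apparatus whose genes are switched on together by serum response factor (SRF) and its coactivator myocardin, through promoter elements called CArG boxes. Pericytes depend on platelet-derived growth factor (PDGF) from endothelial cells, read by the receptor PDGFRβ, and mural cells of arteries on Notch3, a receptor for Notch ligands.

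Promoters of 3 members are shown because Acta2 and Cnn1 varied together between mice and Smtn had no called correlation with any member. They are the 250 bases before the start site in the RefSeq table (build GRCm38.p6), 5′ to 3′ on the gene's strand. Acta2 lies at chr19:34255374-34255623 on the minus strand, Cnn1 at chr9:22099003-22099252 on the plus strand and Smtn at chr11:3539293-3539542 on the minus strand. Capitals mark CArG-like boxes, that is CArG boxes in which 1 inner letter is G or C.
Acta2: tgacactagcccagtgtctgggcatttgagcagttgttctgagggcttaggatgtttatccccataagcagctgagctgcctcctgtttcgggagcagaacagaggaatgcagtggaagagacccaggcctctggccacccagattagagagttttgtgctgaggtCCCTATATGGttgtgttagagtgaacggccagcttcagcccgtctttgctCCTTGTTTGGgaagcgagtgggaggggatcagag
Cnn1: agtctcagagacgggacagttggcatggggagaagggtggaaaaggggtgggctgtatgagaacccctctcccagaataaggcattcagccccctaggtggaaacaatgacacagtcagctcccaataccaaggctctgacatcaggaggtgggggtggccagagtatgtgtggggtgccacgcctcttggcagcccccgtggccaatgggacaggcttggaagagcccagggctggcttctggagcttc
Smtn: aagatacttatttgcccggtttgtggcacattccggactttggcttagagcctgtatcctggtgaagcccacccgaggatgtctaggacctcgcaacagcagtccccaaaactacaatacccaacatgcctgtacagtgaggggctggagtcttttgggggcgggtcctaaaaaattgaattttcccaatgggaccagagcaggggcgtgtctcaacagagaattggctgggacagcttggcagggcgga
The RefSeq table held promoters of 6 of the 9 members, not of Tagln, Myh11 and Pdgfrb. On either strand, the CArG box was found in 1.47% of all 32851 promoters of this length and in none of the 6. The CArG-like form, added after the Acta2 sequence had been seen, was in 7.24% of promoters, and among the 6 only in Acta2, with 2 matches, the first beginning 84 bases before the start. The Notch effector motif GTGGGAA was in 5.42% of promoters and none of the 6. The E-box CANNTG was in 66.2% of promoters, with 3 matches in Acta2, 1 in Cnn1 and none in the other 4.

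Libraries held between 14403102 and 30867399 counts. Ppp2r2a was measured first, as the targeted gene. It was at 37.4 ± 10.2 CPM (counts scaled to the library total; SD, n = 6) in Ctrl males and 14.1 ± 1.81 (n = 7) in cKO males, and at 40.4 ± 3.60 (n = 6) and 13.4 ± 2.07 (n = 7) in females. It fell by 1.40 on the log2 scale in males (SE 0.14, adjusted p 1.86e-06, edgeR quasi-likelihood test) and by 1.58 in females (SE 0.14, adjusted p 1.9e-07), with no overlap of the groups, although 2 Ctrl males (numbered 3 and 6) were at 24.9 and 24.1 CPM. Cardiomyocyte markers (6 genes) summed to between 50460 and 71060 CPM per mouse and the 9 smooth muscle and pericyte genes to between 904.2 and 1213 CPM. In such bulk tissue, fewer cells of a type and less RNA per cell cannot be told apart.

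Per length of the longest transcript, Rgs5, which encodes a regulator of G protein signalling that marks pericytes and arteriolar smooth muscle, was the most abundant of the 9. Over the 26 mice it averaged 151.3 ± 15.9 CPM per kilobase (SD), above Smtn (smoothelin, an actin-binding protein) at 44.9 ± 3.10 and Acta2 (smooth muscle α-actin) at 28.3 ± 7.81. Tagln (transgelin, an actin-binding protein) followed at 16.4 ± 3.90 and Pdgfrb at 14.7 ± 1.70, then Notch3 at 5.73 ± 0.735 and Myh11 (smooth muscle myosin heavy chain) at 5.03 ± 1.01. The lowest were Cspg4 (the NG2 proteoglycan of pericytes) at 2.47 ± 0.805 and Cnn1 (calponin, which binds actin and restrains myosin) at 1.06 ± 0.543. In that order 2 steps lay within the spread: Tagln exceeded Pdgfrb in 17 of 26 mice, and Notch3 exceeded Myh11 in 17 of 26. Every other neighbour held its place in at least 25 of the 26 mice.

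The 9 genes differed widely in how much they varied. Smtn was the steadiest, with a coefficient of variation (CV) of 6.91% over all mice, ahead of Rgs5 at 10.5%, Pdgfrb at 11.6% and Notch3 at 12.8%. More variable were Myh11 at 20.0%, Tagln at 23.7%, Acta2 at 27.6%, Cspg4 at 32.6% and Cnn1 at 51.2%, whose highest mouse was 6.51 times its lowest. Cnn1 is also the least sampled gene, with 15 to 221 counts per library, so counting error weighs most there.

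**Figure D1:**
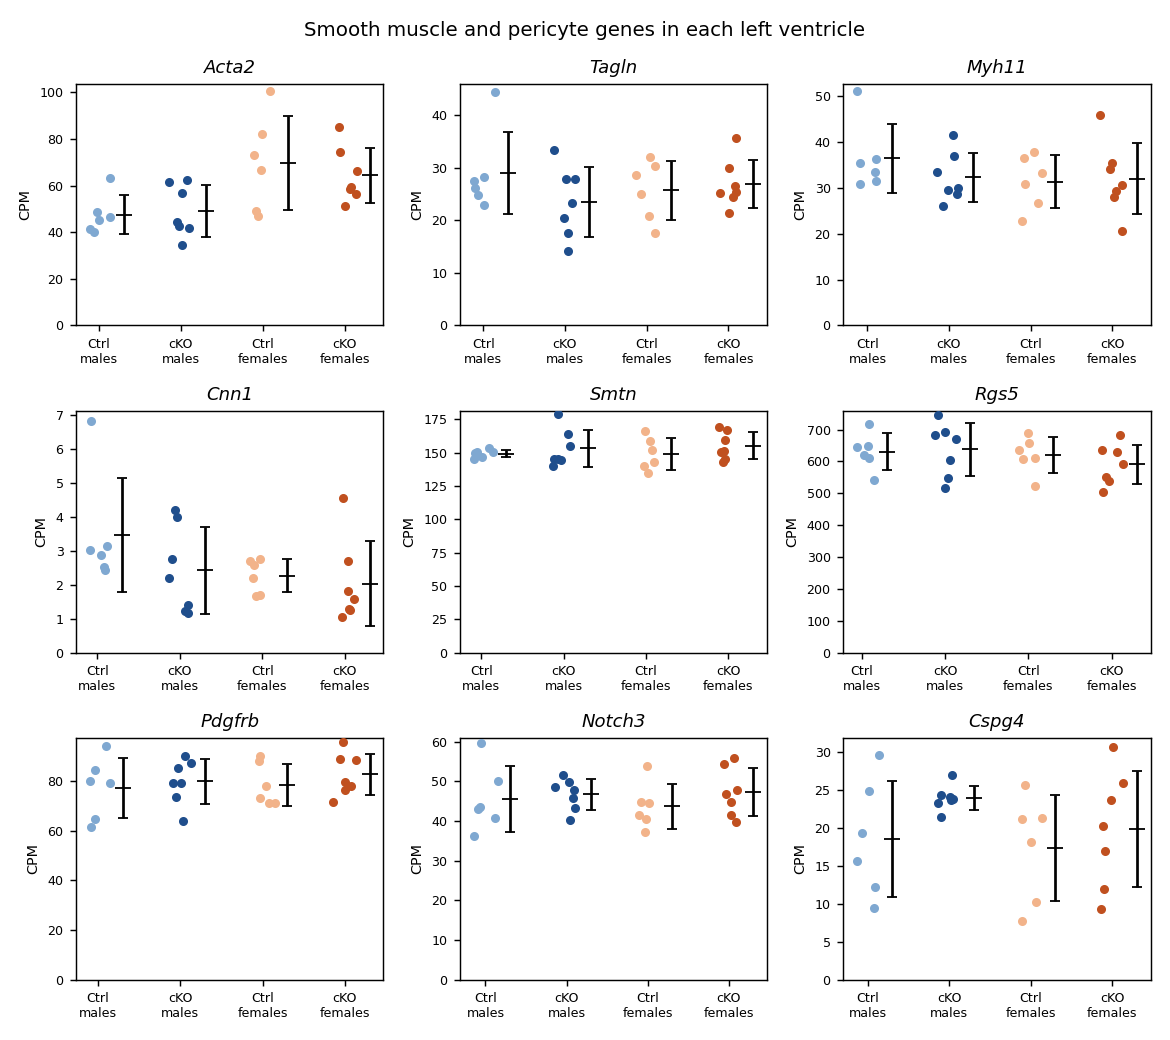
CPM (linear axis from 0) of each of the 9 genes in each mouse, by group: Ctrl males (n = 6), cKO males (n = 7), Ctrl females (n = 6) and cKO females (n = 7), with group mean and SD as bars beside the points. Female Acta2 values reach 100.4 CPM while no male exceeds 63.4, but the 4 groups overlap for all 9 genes.

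No member passed the test for cardiomyocyte Ppp2r2a loss in either sex. In males, 0 of the 9 genes were called at an adjusted p under 0.05 and 0 had an unadjusted p under 0.05, against 0.443% and 13.2% of all genes tested (edgeR). DESeq2 and limma voom also called 0 of the 9. DESeq2 gave an adjusted p to 9700 genes there, and a gene without one could not be called. It called 3.98% of those genes, and voom called 1.22% of all genes tested. The median log2 fold change of the 9 was 0.04, and that of all genes 0.001. In females, 0 of 9 were called and 0 had an unadjusted p under 0.05, against 0.0326% and 5.15% of all genes. Again 0 were called by DESeq2 and by voom, against 0.0586% and 0.026% of all genes. The female median was 0.06 for the 9 and 0.0028 for all genes. With both sexes averaged, 0 of 9 were called and 0 had an unadjusted p under 0.05, against 1.33% and 14.1% of all genes. Both other tools called 0. DESeq2 called 4.57% of the 11486 genes to which it gave an adjusted p, and voom 2.03% of all genes. Beside these values, libraries of cKO males favoured longer transcripts, with a rank correlation of level and transcript length across genes of 0.07 to 0.184, against -0.174 to 0.087 in Ctrl males. With an offset for length and GC content, 0 of 9 members were called in males and Notch3, the member with the second longest transcript, went from 0.04 to -0.07.

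The precision of these comparisons differed from gene to gene, and the intervals say what size of change the data allow. Smtn was at 149.4 ± 2.74 CPM (SD, n = 6) in Ctrl males and 153.5 ± 13.9 (n = 7) in cKO males. Its 95% interval for the cKO to Ctrl ratio on the log2 scale ran from -0.08 to 0.16 in males and from -0.06 to 0.18 in females. Rgs5 was bounded less closely than Smtn, between -0.15 and 0.18 in males and between -0.24 and 0.10 in females. Pdgfrb lay between -0.14 and 0.24 in males, and Notch3 between -0.16 and 0.24. In females these 2 receptors lay between -0.12 and 0.26 and between -0.09 and 0.32. For Cnn1, the interval in males reached from -1.23 to 0.14, so neither no change nor a fall by 1 log2 unit lay outside it.

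Among the contractile genes, 3 had lower mean values in cKO males without passing the test. Tagln ran from 22.9 to 44.5 CPM with a median of 26.9 in Ctrl males and from 14.2 to 33.4 with a median of 23.4 in cKO males. Of the cKO males 3 of 7 lay below every Ctrl male, the highest Ctrl male lay above every cKO male, and otherwise the groups overlapped. The log2 difference was -0.31 (SE 0.18, adjusted p 0.486). Myh11 ran from 30.8 to 51.2 CPM (median 34.4) in Ctrl males and from 26.1 to 41.5 (median 30.0) in cKO males, a log2 difference of -0.18 (SE 0.15, adjusted p 0.674, edgeR). Cnn1 ran from 2.42 to 6.83 CPM (median 2.96) in Ctrl males and from 1.17 to 4.22 (median 2.19) in cKO males, a log2 difference of -0.54 (SE 0.33, adjusted p 0.501). For all 3 the highest Ctrl male was the same animal, number 4. Without that animal, the Tagln difference was -0.14, that of Myh11 -0.05 and that of Cnn1 -0.21, the nearest to 0 of any single omission. Male Acta2 averaged 47.6 ± 8.42 CPM in Ctrl and 49.1 ± 11.1 in cKO, with a log2 difference of 0.04 (SE 0.17).

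In females, too, none of these genes passed the test. Tagln was at 25.8 ± 5.65 CPM (n = 6) in Ctrl and 27.0 ± 4.62 (n = 7) in cKO, and Myh11 at 31.3 ± 5.78 and 32.0 ± 7.82. Cnn1 ran from 1.66 to 2.76 CPM (median 2.40) in Ctrl females and from 1.05 to 4.57 (median 1.57) in cKO females, where 4 of 7 cKO females lay below every Ctrl female and 1, number 5, above every one; in males, too, 4 of 7 cKO mice lay below every Ctrl mouse. Whether the genotype difference itself differed between the sexes was tested as an interaction. It was called for 0 of 9 members and for 0% of all genes, with an unadjusted p under 0.05 for 0 of 9 and for 3.96% of all genes, and DESeq2 and voom called 0 of the 9. The interaction was 0.38 for Tagln (SE 0.26) and 0.43 for Cnn1 (SE 0.49) on the log2 scale, each with an adjusted p of 0.999 (edgeR).

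**Figure D2:**
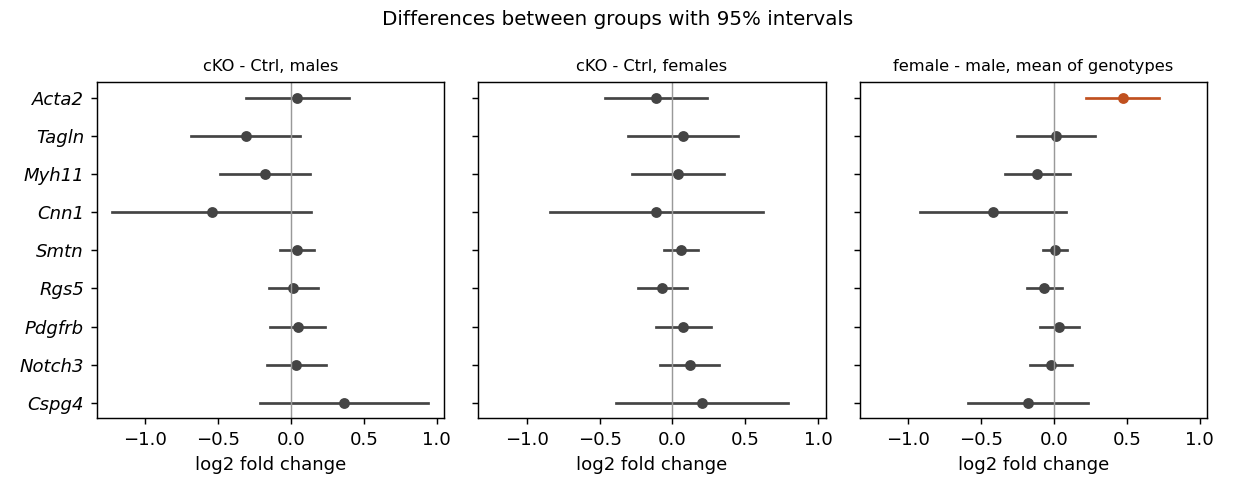
Log2 fold change of each of the 9 genes with its 95% interval, for cKO against Ctrl in males, in females, and female against male averaged over genotypes. All intervals cross 0 except that of Acta2 in the sex comparison (0.22 to 0.72), drawn in orange because it passed the adjusted test.

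Cspg4 stood out by its spread. In cKO males its 7 values lay between 21.5 and 26.9 CPM (CV 6.76%), whereas Ctrl males ran from 9.47 to 29.5 (CV 41.2%), Ctrl females from 7.70 to 25.7 (CV 40.3%) and cKO females from 9.31 to 30.7 (CV 38.6%). Of the 6 Ctrl males 4 lay below every cKO male and the other 2 lay within or above their range. The mean difference in males was 0.36 on the log2 scale (SE 0.28, adjusted p 0.626, edgeR), and the difference in spread was not tested. The Cspg4 level moved with the tendency of a library to favour GC-rich transcripts (r = 0.513, permutation p 0.0124, rho = 0.441, permutation p 0.035). Without the 2 mice farthest from the median of that tendency, r was 0.444. The adjusted permutation p, however, was 0.334 for r and 0.67 for rho over 27 relations of the members with GC trend, length trend and total counts. None of the 27 passed the adjusted threshold.

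Averaged over the genotypes, Acta2 was higher in females than in males. Ctrl males ran from 39.9 to 63.4 CPM with a median of 45.9, and Ctrl females from 47.0 to 100.4 with a median of 69.9. Of the Ctrl females 4 of 6 exceeded every Ctrl male and 4 of 6 Ctrl males lay below every Ctrl female. The cKO males ran from 34.3 to 62.5 CPM (median 44.2) and the cKO females from 51.1 to 85.1 (median 59.2), where 3 of 7 females exceeded every male and 4 of 7 males lay below every female. The female level was on average 1.39-fold the male level, a log2 difference of 0.47 (SE 0.12, 95% interval 0.22 to 0.72, adjusted p 0.0178, edgeR). This was 1 call of 9 members, against 7.71% of all genes called in that comparison and 4.02% called higher in females, so by its count the list is close to the background. The other 8 members lay between -0.42 (Cnn1) and 0.04 (Pdgfrb), and the median of the 9 was -0.02 against 0.0045 for all genes.

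Within each genotype the Acta2 difference did not pass the adjusted test. It was 0.55 in Ctrl mice (SE 0.18, p 0.0048, adjusted p 0.168, edgeR) and 0.39 in cKO mice (SE 0.16, p 0.0251, adjusted p 0.208). In Ctrl mice 0 of 9 members were called against 0.638% of all genes, and in cKO mice 0 of 9 against 2.7%; Acta2 was the 1 member with an unadjusted p under 0.05 in each, where 12.1% and 17.3% of all genes had one, and DESeq2 and voom called 0 members in both. The averaged difference passed in 37 of 38 other settings, with adjusted p from 0.00184 to 0.0484. Without the Ctrl males numbered 3 and 6, whose Ppp2r2a was low, it was 0.45 with an adjusted p of 0.0573.

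The sex difference of Acta2 was set against its neighbours in the contractile group, a comparison chosen after the values had been seen. Acta2 was the 1 member called for sex in these same mice. The p-values of its ratios do not allow for that choice and are not separate support for the difference. The log2 ratio of Acta2 to Tagln was 0.73 ± 0.14 (SD) in Ctrl males, 1.08 ± 0.16 in cKO males, 1.42 ± 0.46 in Ctrl females and 1.25 ± 0.24 in cKO females. It was 0.43 higher in females (exact two-sided permutation of sex within genotype, p 0.00285, adjusted over 3 ratios 0.00285). Against Myh11 the ratio was 0.59 higher (exact permutation p 7.51e-05, adjusted 0.000225), and against Cnn1 0.86 higher (exact permutation p 0.000378, adjusted 0.000567). A ratio shows only that the 2 genes did not differ by the same factor, and scaling of the libraries cancels in it. Trends of a library with transcript length or GC content do not cancel, and the longest transcript has 2035 bases for Acta2 and 6549 for Myh11. The part of these trends in the ratios was not tested. In the Acta2 transcript, 7 of 1986 windows of 50 bases (0.352%) occur unchanged in another gene. The cytoplasmic actin Actg1 and actin pseudogenes are among these genes. The part of reads shared with them in the Acta2 difference was not tested. Actg1 itself had a log2 sex difference of 0.13 (SE 0.12), and Actb one of -0.03 (SE 0.07). Of the sarcomeric actins, cardiac Actc1 had a difference of 0.01 (SE 0.05). Skeletal Acta1 was lower in females by 0.82 on the log2 scale (-0.82, SE 0.25, adjusted p 0.0469, edgeR), a call made in 14 of 38 other settings.

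**Figure D3:**
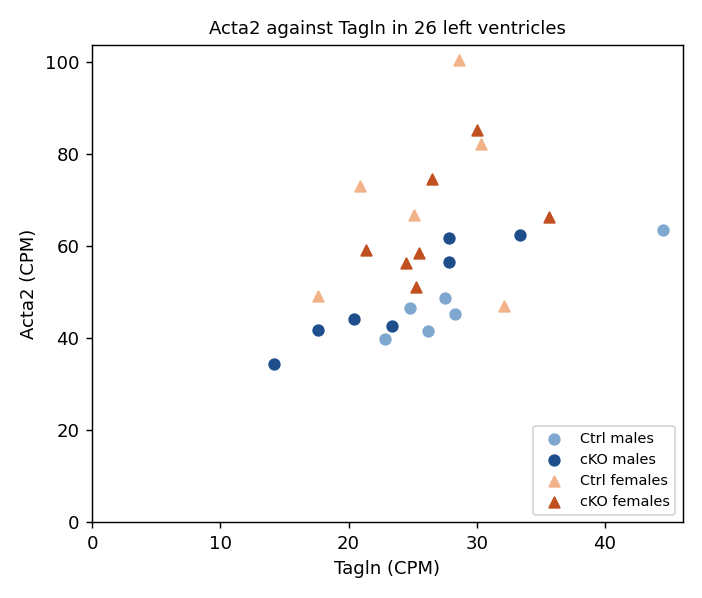
Acta2 against Tagln in CPM (both axes linear from 0) for each of the 26 mice, males as circles and females as triangles, Ctrl light and cKO dark. On the Acta2 axis 7 of the 13 females lie above every male, and on the Tagln axis 0 do. The sexes overlap on both axes.

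Markers of other cell types were measured beside the sex difference. In the averaged sex comparison, where 7.71% of all genes were called and 22.2% had an unadjusted p under 0.05, 2 of 6 cardiomyocyte markers were called higher in females (Tnni3 and Myl2), 1 of 6 fibroblast markers higher (Lum) and 2 lower (Col1a2 and Dcn). Of 5 tested markers of activated fibroblasts, a cell state in which Acta2 can be switched on, Fap was higher by 0.41 on the log2 scale (SE 0.10, adjusted p 0.00893, edgeR) and Meox1 lower (-0.49, SE 0.15, adjusted p 0.0493). Fap was the 1 marker of the 5 with a positive difference, and the median of the 5 was -0.33. The calls of Col1a2, Dcn and Meox1 were made in 21, 18 and 16 of 38 other settings. Summed over 6 listed genes, the activated fibroblast markers ran from 67.1 to 112.6 CPM in Ctrl males, 87.0 to 161.2 in cKO males, 56.2 to 99.2 in Ctrl females and 69.6 to 104.1 in cKO females, and none was at 0 in a whole group. No endothelial (7), immune (5), red blood cell (4), adipocyte (3), atrial (3), mesothelial (2) or Schwann cell (2) marker tested was called for sex. At an unadjusted p under 0.05, all 5 immune markers were lower in females, and 2 of 3 adipocyte (median of the 3 1.02), 2 of 7 endothelial, 1 of 3 atrial and 1 of 2 Schwann cell markers were higher. The part of any of these cells in the Acta2 difference was not tested.

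Between mice of the same group, the contractile genes Acta2, Tagln, Myh11 and Cnn1 varied together, while Smtn had no called pair with them. Log2 CPM was centred on its group mean and correlated over the 26 mice for all 36 pairs. By Pearson's r 11 pairs passed an adjusted p under 0.05, by Spearman's rho 8 pairs, and none of the 11 was negative. All 6 pairs of the contractile genes Acta2, Tagln, Myh11 and Cnn1 were among them. Tagln and Myh11 were closest, with r = 0.878 and rho = 0.893 (permutation p 1e-05 for each, the smallest that 100000 permutations can give, adjusted 0.00018). Each r was also taken without the 2 mice farthest from the median of the gene named first in the pair. For Tagln and Myh11 it was then 0.868. Tagln with Cnn1 gave r = 0.765 (rho = 0.73, permutation p 5e-05 and 0.00027) and Myh11 with Cnn1 r = 0.76 (rho = 0.668, permutation p 5e-05 and 0.00046). Acta2 was less tightly tied, with r = 0.653 to Tagln (rho = 0.638, permutation p 0.00132 and 0.00226), 0.602 to Cnn1 (rho = 0.634, permutation p 0.00117 and 0.00099) and 0.559 to Myh11 (rho = 0.632, permutation p 0.00432 and 0.00178). Without Ctrl females 1 and 2, the 2 mice farthest from the Acta2 median, these 3 became 0.829, 0.627 and 0.74. Without Ctrl male 4 instead, they became 0.603, 0.546 and 0.495.

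Among the genes of mural signalling 3 of 6 pairs were called by r, and 1 of these, Pdgfrb with Notch3, also by rho. This pair gave r = 0.81 and rho = 0.822 (permutation p 1e-05 for each, adjusted 0.00018; r = 0.802 without the 2 farthest mice). Notch3 with Cspg4 gave r = 0.579 (rho = 0.53, permutation p 0.00791 and 0.0135) and Rgs5 with Pdgfrb r = 0.539 (rho = 0.454, permutation p 0.00673 and 0.0256), each with an adjusted p of 0.0292 for r and over 0.05 for rho. The other 3 pairs were not called: Rgs5 with Notch3 (r = 0.441), Pdgfrb with Cspg4 (0.436) and Rgs5 with Cspg4 (0.218). Between the contractile and mural genes 2 pairs were called, Cnn1 with Notch3 at r = 0.511 (rho = 0.442, permutation p 0.00811 and 0.0262; r = 0.284 without the 2 farthest mice) and Cnn1 with Cspg4 at r = 0.438 (rho = 0.468, permutation p 0.0144 and 0.00755; r = 0.248). The r of both rests on the mice left out, although Cnn1 with Cspg4 was also called by rho (adjusted permutation p 0.034). Acta2 had no called pair with Rgs5 (r = -0.0822), Pdgfrb (0.0762), Notch3 (0.191) or Cspg4 (0.202). Smtn had none with any member, with r between -0.256 and 0.0819.

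The number of called pairs changed without 1 Ctrl male, number 4. It was the highest of its group for 8 of the 9 members and the lowest for Smtn, and its library was the largest of the 26. Without it 4 of 36 pairs passed: Tagln with Myh11 (r = 0.851), Tagln with Cnn1 (0.715), Myh11 with Cnn1 (0.712) and Pdgfrb with Notch3 (0.771). Without it the other 7 pairs missed the threshold, with r still above 0: Acta2 had 0.603 with Tagln, 0.546 with Cnn1 (adjusted permutation p 0.0511 for each) and 0.495 with Myh11, Notch3 had 0.505 with Cspg4, Rgs5 had 0.485 with Pdgfrb, and Cnn1 had 0.389 with Notch3 and 0.352 with Cspg4. With the transcript length and GC trends of each library removed, an alternative added after seeing the data, 9 pairs passed, among them the 6 contractile pairs and Pdgfrb with Notch3 (r = 0.808), and Smtn with Cspg4 came in at r = -0.503 (adjusted permutation p 0.0312).

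**Figure D4:**
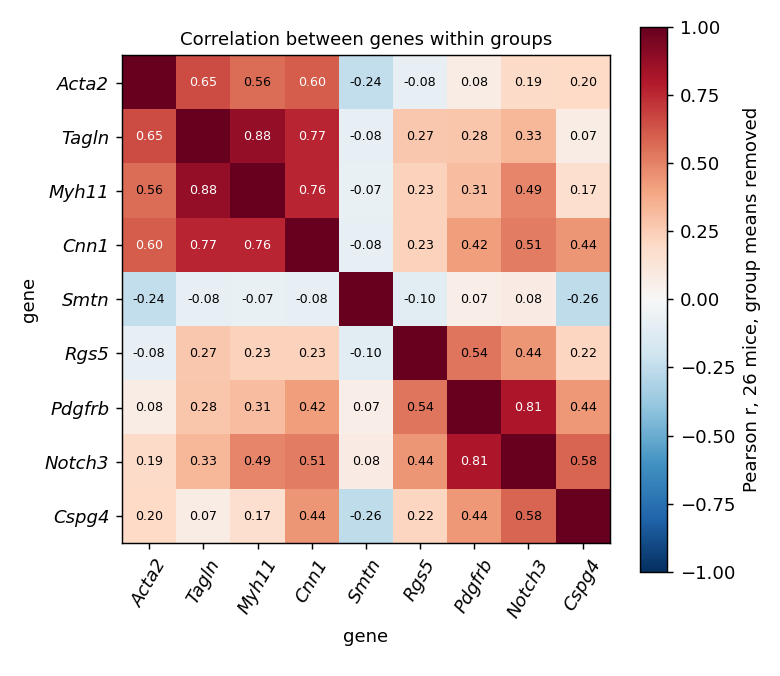
Pearson r for each pair of the 9 genes over 26 mice, with each group's mean removed, from -1 (blue) to 1 (red). The contractile genes Acta2, Tagln, Myh11 and Cnn1 form one block (r from 0.559 to 0.878), Pdgfrb and Notch3 a second pair (0.81), and Smtn is pale throughout.

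**Figure D5:**
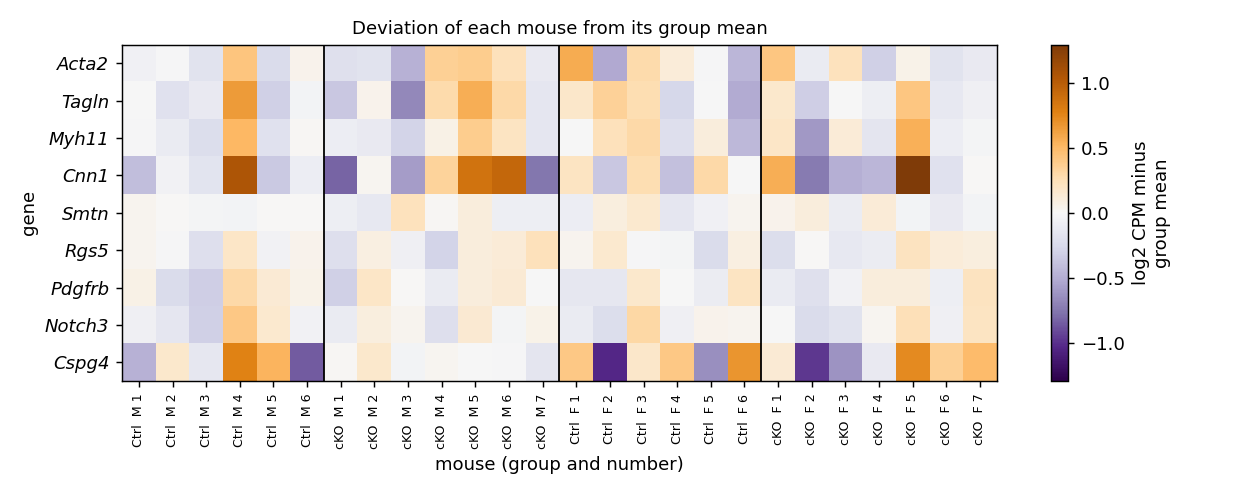
Deviation of each of the 26 mice from its group mean for each gene, in log2 CPM (prior count of 2), purple below and orange above. Ctrl male 4 is orange for 8 of the 9 genes, all but Smtn, and Cnn1 and Cspg4 carry the strongest colours.

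Ranked among 10295 genes with a mean of at least 5 CPM or in the list, Myh11 was closest to Tagln and Cnn1. The closest gene outside the list was Myl9, which encodes the regulatory light chain of smooth muscle myosin, at r = 0.75, followed by Dbnl (an actin-binding adaptor) at 0.673 and Slc39a7 (a zinc transporter) at 0.667. Rgs5 was closest to App (the amyloid precursor protein) at 0.756, Cyb5r3 (a cytochrome b5 reductase) at 0.73 and Pcsk6 (a proprotein convertase) at 0.728. Pdgfrb came at rank 117 and Notch3 at rank 350 for Rgs5, and Acta2 at rank 24 for Myh11. These are descriptions over 26 mice that share library preparation and the removal of group means. The libraries differed in depth and in their trends with transcript length and GC content.

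Other genes of the same pathways were read from 3 lists. Of 22 contractile genes and regulators, myocardin and SRF among them, 0 were called for genotype in males and 0 in females by edgeR (0.443% and 0.0326% of all genes). An unadjusted p under 0.05 was found for 2 and 0 (13.2% and 5.15% of all genes). The median log2 fold changes were 0.02 and 0.0069. Tpm1 of this list averaged 7241 CPM in Ctrl males, where the 9 members together reached at most 1213 CPM. The part of cardiomyocytes in the values of this list was not tested. Aoc3, a vascular amine oxidase of smooth muscle, had 15.9 CPM in Ctrl males and 22.4 in cKO males, a log2 difference of 0.49 (SE 0.12, adjusted p 0.059, edgeR). DESeq2 and voom both called it, where they called 3.98% of genes with an adjusted p and 1.22% of all genes. The call was made in 6 of 39 other settings, and in 1 of 26 with 1 mouse left out. In the averaged sex comparison 0 of 22 were called and 3 had an unadjusted p under 0.05, all lower in females, against 7.71% and 22.2% of all genes; DESeq2 and voom also called 0.

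Of 17 other pericyte and mural genes, 0 were called for genotype in males (median -0.07) and 0 in females (median 0.02). By edgeR 0.443% and 0.0326% of all genes were called. An unadjusted p under 0.05 was found for 0 and 1, against 13.2% and 5.15% of all genes. DESeq2 and voom called 0 in both sexes. In males, however, DESeq2 gave an adjusted p to only 14 of the 17, and the rest could not be called. In the averaged sex comparison, with 7.71% of all genes called, 1 of 17 was called by edgeR, Anpep (aminopeptidase N, a pericyte surface enzyme). It averaged 9.63 CPM in Ctrl males and 10.2 in cKO males, and 12.4 in Ctrl females and 13.4 in cKO females, a log2 difference of 0.38 (SE 0.08, adjusted p 0.00229, edgeR), which passed in all 38 other settings. The call within cKO mice (0.40, adjusted p 0.0331, edgeR) was made in 25 of 39. In the averaged comparison 3 of the 17 had an unadjusted p under 0.05, all higher in females, against 22.2% of all genes. Voom called Anpep alone there, and DESeq2 called Anpep and Ndufa4l2, where they called 8.53% and 9.69% of all genes. The Ndufa4l2 call was made in 5 of 38 other settings, and in 4 of 26 with 1 mouse left out.

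The last list held 19 genes of PDGF and Notch signalling: ligands, other receptors, and partners and targets of Notch receptors. Of these 19, 0 were called for genotype in either sex by edgeR or voom. By edgeR 0.443% of all genes were called in males and 0.0326% in females. In males 6 had an unadjusted p under 0.05, all higher in cKO, and in females 1, against 13.2% and 5.15% of all genes. DESeq2 called Notch4, a Notch receptor of endothelial cells, in males (edgeR log2 difference 0.31, SE 0.09, adjusted p 0.106). That call was made in 3 of 39 other settings, and in 0 of 26 with 1 mouse left out. Notch2, 1 of the 19, was called for sex, against 7.71% of all genes. It averaged 20.1 CPM in Ctrl males, 23.2 in cKO males, 24.99 in Ctrl females and 24.95 in cKO females, a log2 difference of 0.21 (SE 0.06, adjusted p 0.0445, edgeR), made in 19 of 38 other settings with adjusted p up to 0.0947.

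Where genes overlap, counts of some members may be raised by reads of the other gene or lowered by loss of shared reads. How the authors' counting used strand is not given in the sources used here. The part of such overlaps in the member values, and in the ratio of Acta2 to Tagln, was not tested. In GENCODE M21 the antisense gene Gm48529 covers 62.4% of the exon bases of Tagln, Gm11946 covers 16.3% of those of Smtn, and Gm17276 6.03% of those of Notch3. No overlapping exon was annotated for Acta2, Myh11, Cnn1, Rgs5, Pdgfrb or Cspg4. Of 6500 windows of 50 bases in Myh11, 26 occur also in Myh9 or Myh10, the non-muscle myosins.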

How the data were processed

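Left ventricle RNA of 26 mice (500 ng, integrity numbers from 7.7 upwards) was made into stranded poly-A libraries, per the labels' protocols. One matrix of raw counts was deposited by the authors; the submitters' processing notes name FastQC 0.74, cutadapt 4.6, STAR 2.7.11a, HTSeq and build GRCm39. Each column matched 1 sample by its name. Within groups, the counts of 72 pairs of libraries differed by more than sampling noise (chi-square per degree of freedom 7.19 to 33.4), so none was taken as a repeat of another library. This cannot show that they came from separate animals, and all were counted as separate mice by assumption. The labels number the samples of a group but do not state that each is a separate animal, so p-values measure the spread between these samples.

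Counts were fitted in R 4.3.3 with edgeR 4.0.16: filterByExpr with a minimum count of 10, TMM scaling, 1 mean per group over all 26 mice, robust quasi-likelihood F tests, Benjamini-Hochberg adjustment over all 15357 genes and calls at an adjusted p under 0.05. CPM used TMM-scaled totals, and log2 CPM a prior count of 2. Each standard error is the log2 fold change divided by the square root of F. Correlations used 100000 two-sided permutations within groups, adjusted over 36 pairs. The fit was tested on simulated data. DESeq2 1.42.0, limma 3.58.1 (voom) and sva 3.50.0 gave alternatives. Transcript length, GC content and overlaps came from GENCODE M21 by gene ID (98.3% of tested genes), promoters from a RefSeq table; both differ in build from the counts, so no other coordinates are given.

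The members and the lists were chosen with earlier results of these data known. Genes named are all 9 members, Ppp2r2a, list genes called in any contrast, otherwise those of smallest p (of which Aoc3 is shown; Cnn2, Cald1 and Ppp1r12b were not called), and the 3 genes most like Myh11 and Rgs5. The other actins, Notch4, Ndufa4l2, the called cell type markers and the Acta2 ratios were chosen after their values had been seen.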

Additional observations from a re-analysis of the deposited data

Results flagged for a closer look

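In 4 of 36 gene and group combinations, 1 mouse lay apart from the rest of its group by Dixon's test at the 95% level, and all 4 were the same animal, Ctrl male 4. It was the highest of the 6 Ctrl males for Acta2 at 63.4 CPM, for Tagln at 44.5 CPM, for Myh11 at 51.2 CPM and for Cnn1 at 6.83 CPM. It was also the highest Ctrl male for Rgs5 (718.1 CPM), Pdgfrb (93.95 CPM), Notch3 (59.7 CPM) and Cspg4 (29.5 CPM), which did not pass that test, and the lowest for Smtn (145.7 CPM). Chance flags about 1 in 20 groups, and these 4 genes vary together between mice, so the 4 flags are not independent. The library of this mouse held 30867399 counts, the most of the 26. Its counts fell with transcript length (rho = -0.174 across genes) and rose with GC content (rho = 0.195 across genes), against -0.171 and -0.037 in Ctrl male 5. The part of these library trends in the 4 values was not tested. No gene was flagged for a difference between the sexes in the genotype effect.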

How the results depend on the processing

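The count of called members was 0 in both genotype contrasts, the interaction, both sex contrasts within genotype and the mean genotype effect, and it stayed 0 under every alternative run. In the averaged sex comparison it was 1 (Acta2), and 0 without the Ctrl males numbered 3 and 6 and 0 at an adjusted p under 0.01; the cause was not tested. With any 1 mouse left out it stayed 1, with adjusted p of Acta2 from 0.00904 to 0.0355. Among 785 other member values under 13 alternatives, 42 changed sign, and among 1638 with 1 mouse left out, 73 did, all uncalled. The member values that moved by more than their standard error were those of Notch3, Pdgfrb and Rgs5 under the length and GC offset, alone or with the replicate block (Notch3 in males from 0.04 to -0.07) and Cnn1 in the sex comparison of cKO mice without cKO female 5 (-0.55). Called pairs of correlated genes numbered 11, and 4 to 12 with 1 mouse left out, the 4 without Ctrl male 4. All 3 Acta2 ratios, chosen after the values had been seen, passed with any 1 mouse left out. The number of genes called in males over the whole table was 68, against 386 with DESeq2, 188 with voom, 164 with a mean of at least 5 CPM, 15 with the length and GC offset and 7 without the Ctrl males numbered 3 and 6; with 1 mouse left out it ran from 4 (without Ctrl male 5) to 122 (without Ctrl female 6).

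Equal replicate numbers did not meet the criterion for pairs, a correlation over 0.1 in every pair: same-numbered mice deviated together with a mean r of -0.0259 in males (0 of 6 pairs over 0.1) and 0.118 in females (3 of 6, up to 0.404), against -0.0186 for other pairs of females, so a pairing of some females is not excluded. With the replicate number as a block, 0 members were called in males, 0 in females and 1 for sex, with Acta2 at 0.46 (adjusted p 0.0321). The comparison of only 2 groups gave no value for the interaction and the averaged effects. Intervals cover the spread between mice, and Cnn1, at 15 counts in its shallowest library, is limited by depth.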
